A study of Mus musculus with 12 samples.

Results

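The granzymes and perforin are the granule proteins with which cytotoxic T cells kill their targets. The group described here was chosen by gene name and comprises 10 mouse genes, Gzma, Gzmb, Gzmc, Gzmd, Gzme, Gzmf, Gzmg, Gzmk, Gzmm and Prf1. All 10 were matched to Ensembl identifiers among the 46603 in the count table, and all 10 passed the filter on low counts. Their transcripts were read in 12 RNA sequencing libraries from OT-I/Cas9 CD8 T cells, which are spleen T cells with 1 transgenic receptor for an ovalbumin peptide and a constitutive Cas9 nuclease. The 6 groups of 2 libraries were activated Tmed10 KO cells, activated AGN192403-treated cells, activated control cells, and the same 3 conditions at rest. Tmed10 KO cells carried a guide RNA against Tmed10 and received water as vehicle. AGN192403 (100 µM for 24 h), an imidazoline receptor ligand that the study used to lower TMED protein abundance, was given only to cells with a control guide. Control cells carried the control guide and received water. Activated cells were kept for 24 h on plates coated with antibody to CD3 (2.5 µg/mL), while resting cells were not restimulated.

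All groups had the same history. The cells came from spleens of male and female mice, aged up to 12 months, and were first activated on antibodies to CD3 and CD28, transduced with retrovirus, selected on puromycin, and kept in IL-2, IL-7 and IL-15. Resting cells are thus cultured effector cells and not naive cells, and the KO is a pool of edited cells and not 1 clone. Nothing in the labels says that 2 replicates came from separate cultures or mice, so the p-values may measure technical spread only. Both perturbations were compared with the same control libraries.

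Granzymes are serine proteases that are stored in secretory lysosomes bound to the proteoglycan serglycin. When a T cell engages its target, the granules fuse with the plasma membrane, perforin opens pores in the membrane of the target, and granzymes enter its cytosol. Granzyme B cleaves after aspartate and activates caspases, whereas granzyme A is a tryptase that triggers death without them. Granzymes C to G are encoded in rodents in 1 cluster with Gzmb, and are known as genes that strongly activated T cells express late. Granzyme K is another tryptase and marks memory-like CD8 T cells, and granzyme M cleaves after methionine and is best known from natural killer cells.

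Gzmb and Gzmc to Gzmg lie on chromosome 14 on the minus strand, within 144635 bases from 56117626 (the end of Gzme) to 56262260 (the start of Gzmb) on GRCm38. Gzma (113093825 to 113100981) and Gzmk (113171608 to 113225908) are neighbours on chromosome 13. Gzmm (79689020 to 79695261) and Prf1 (61297833 to 61304680) lie apart on chromosome 10. The chromosome 14 genes resemble each other closely. Among Gzmc to Gzmg, the 10 pairs shared 75.6% to 94.8% of aligned coding bases, with Gzmd and Gzme the closest pair, and Gzmb shared 71.6% to 77.9% with each of them. The study sequenced single reads of 65 bases. Of all windows as long as a read in the annotated transcripts, 11.2% in Gzmg, 10.8% in Gzmd, 9.04% in Gzme, 2.11% in Gzmf and 0.482% in Gzmc were also present in another gene. No such window was found in Gzma, Gzmb, Gzmk, Gzmm or Prf1, which had 0 shared windows of 1004, 1372, 1388, 1408 and 2517. How the counting treated reads that match several genes is not given in the sources used here. Single values for Gzmd, Gzme and Gzmg are therefore less certain than those of the other members, and the sum of Gzmc to Gzmg is given beside them.

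**Figure D1:**
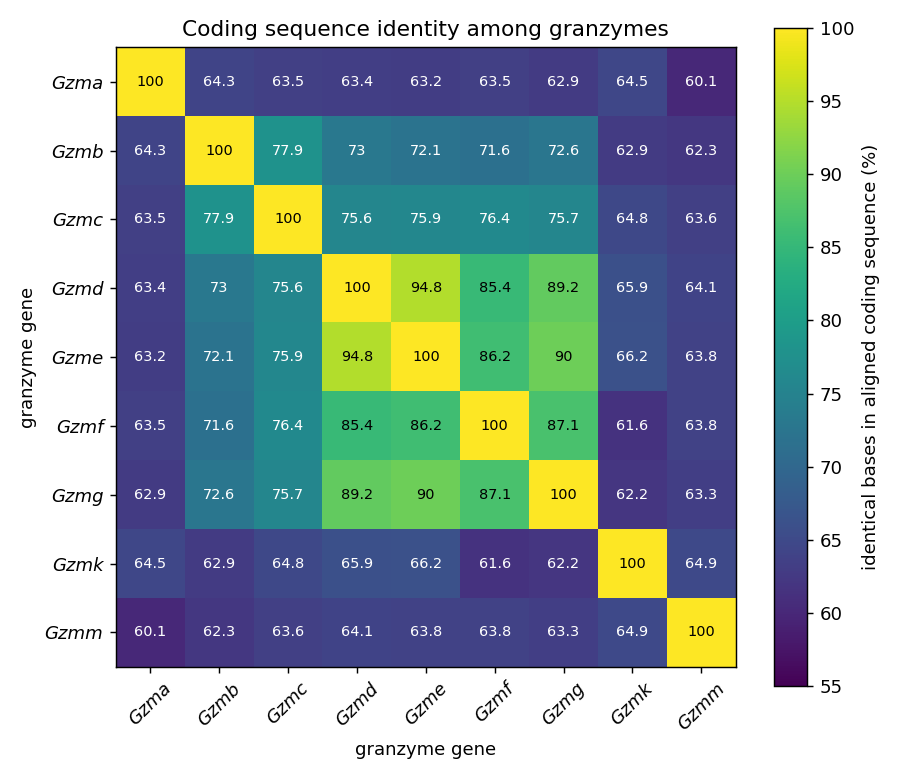
Identical bases (%) in pairwise alignments of the coding sequences of the 9 granzyme genes. Gzmd and Gzme shared 94.8%, pairs among Gzmc to Gzmg at least 75.6%, and Gzma, Gzmk and Gzmm shared 60.1% to 66.2% with any other member.

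The promoters of Gzmc to Gzmg also resemble each other, and they are shown here with that of Gzmb. Whether this likeness bears on the expression of the genes was not tested. RefSeq promoters (GRCm38.p6) were matched for all 10 members. Over the 250 bases before the start site, Gzmc to Gzmg were 84.4% to 95.6% identical, over 225 to 249 aligned bases. The last 120 bases before each start site are printed for Gzmb (chr14:56262335-56262454), Gzmc (chr14:56234658-56234777), Gzmd (chr14:56132594-56132713), Gzme (chr14:56120626-56120745), Gzmf (chr14:56211408-56211527) and Gzmg (chr14:56159580-56159699), all on the minus strand. Capitals mark matches to a cyclic AMP response element (CRE, TGACGTCA), an AP-1 site (TGANTCA) or a RUNX site (TGTGGT), searched on both strands.
Gzmb: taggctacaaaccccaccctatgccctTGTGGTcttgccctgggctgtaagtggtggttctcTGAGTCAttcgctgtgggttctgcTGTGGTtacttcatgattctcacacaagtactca
Gzmc: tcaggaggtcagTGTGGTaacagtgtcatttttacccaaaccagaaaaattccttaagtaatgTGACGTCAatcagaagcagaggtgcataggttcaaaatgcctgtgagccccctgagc
Gzmd: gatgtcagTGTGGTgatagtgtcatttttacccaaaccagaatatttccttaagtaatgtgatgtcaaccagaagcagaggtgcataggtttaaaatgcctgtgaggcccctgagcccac
Gzme: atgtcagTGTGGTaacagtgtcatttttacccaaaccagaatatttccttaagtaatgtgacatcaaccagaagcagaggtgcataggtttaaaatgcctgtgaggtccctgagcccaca
Gzmf: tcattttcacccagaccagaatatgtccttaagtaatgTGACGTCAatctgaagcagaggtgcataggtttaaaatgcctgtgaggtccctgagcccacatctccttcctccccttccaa
Gzmg: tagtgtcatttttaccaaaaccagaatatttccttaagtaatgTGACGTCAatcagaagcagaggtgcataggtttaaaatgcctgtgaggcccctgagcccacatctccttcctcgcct

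The full CRE was present in Gzmc, Gzmf and Gzmg. At the aligned site, Gzmd differed from it by C4T and Gzme by G5A, with positions counted from 1 at the first base of TGACGTCA. An AP-1 match was found in Gzmb, 58 bases before the start, and in no other member. RUNX matches were found in 9 of the 10 promoters, all but that of Gzmk, and no 2 matches overlapped. Over 32851 RefSeq promoters of the same length, 1.55% held the CRE, 6.75% the AP-1 site and 14.0% the RUNX site. A match is a run of letters and not evidence of binding.

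Libraries held 9089350 to 16481840 counts. The labels were checked with Tmed10 itself, which had 55.9 to 65.1 CPM (counts relative to library size, with TMM scaling) in the 4 KO libraries, against 116 to 144 CPM in the other 8. Reads from edited alleles still count, so this level does not measure editing. All 10 CD8 T cell markers were tested, and their sum ran from 4086 to 5756 CPM. Of the cell types that also make granzymes, natural killer cells were marked by 7 genes, of which 1 (Cd160, which CD8 T cells also express) was tested, and Ncr1 and Klrb1c had group means of at most 0.176 and 0.565 CPM. The sum of the 7 ran from 33.8 to 45.1 CPM in activated and from 116 to 183 CPM in resting libraries. Nearly all of it was Cd160, at means of 35.03 CPM in activated and 147.6 CPM in resting control cells. Cd160 thus moved with activation as Gzmk and Gzmm did, while Klra4, Klra8 and Klra9 were higher after activation, at group means of at most 0.624 CPM. The part of natural killer cells in the change of Gzmk and Gzmm was not tested. Of 8 mast cell markers 1 (Kit) was tested, and Ms4a2, Fcer1a, Mcpt4 and Tpsb2 were at 0 in every library. The sum, nearly all of it Kit, ran from 44.1 to 81.0 CPM. Gamma delta T cells had 3 markers, of which Trdc and Tcrg-C1 were tested, and their sum ran from 62.0 to 75.4 CPM in activated and from 260 to 333 CPM in resting libraries. It thus also moved with activation as Gzma, Gzmk and Gzmm did, and its part was not tested. Kcnq1ot1, a long RNA of the nucleus, was at 33.3 to 42.2 CPM in replicate 1 of activated AGN192403-treated, activated control and resting control cells, and at 3.40 to 16.0 CPM in the other 9 libraries. Fold changes without these 3 libraries are given below. That fit leaves 1 library in each of the 3 groups.

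Gzmb dominated the family in every group. Together the 10 genes took 2.07% and 2.16% of all counts in activated Tmed10 KO cells, 1.59% and 1.68% in activated AGN192403-treated cells and 2.36% and 2.43% in activated control cells. At rest the same shares were 1.07% and 1.08% in KO cells, 1.06% and 1.08% with AGN192403, and 1.24% and 1.28% in control cells. The control libraries were thus the highest in both states, with no overlap. Gzmb alone held 83.4% ± 0.24 of the family's counts in activated KO cells, 82.9% ± 0.042 with AGN192403 and 81.9% ± 0.042 in control cells (SD, n = 2 each). At rest it held 80.4% ± 0.14 in KO cells, 81.3% ± 0.13 with AGN192403 and 76.2% ± 0.31 in control cells. The larger share of Gzmb in treated or edited resting cells stood beside smaller shares of Gzma and of the summed Gzmc to Gzmg.

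Levels of different genes were compared as CPM per kilobase of exon. In all 6 groups Gzmb stood highest, followed by Gzma and then Gzmc. In activated control cells Gzmb was at 13930 ± 446, Gzma at 1634 ± 31.5, Gzmc at 973 ± 61.9, Gzmd at 533 ± 20.5, Prf1 at 364 ± 6.84, Gzme at 326 ± 3.53, Gzmg at 88.1 ± 0.31 and Gzmf at 70.3 ± 8.78 CPM per kb. Gzmm and Gzmk were far below, at 1.25 ± 0.074 and 0.632 ± 0.039 CPM per kb. The libraries of neighbours in this order overlapped for 2 pairs, Prf1 (285 ± 16.1) and Gzmd (275 ± 6.54) in activated and Gzmf (24.1 ± 1.38) and Gzmg (23.4 ± 0.55) in resting AGN192403-treated cells. Prf1 moved most in the order, since it stood above Gzme in all 3 activated groups and in resting AGN192403-treated cells (70.3 ± 2.11 against 56.4 ± 3.92), and below it in resting KO (77.3 ± 1.86 against 81.2 ± 2.71) and resting control cells (111 ± 0.86 against 144 ± 3.02). With coding in place of exon length, 44 or 45 of 45 pairs of members kept their order in each group. Gzmn, a neighbouring gene of the cluster, had 0 to 3 counts per library and was not tested.

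**Figure D2:**
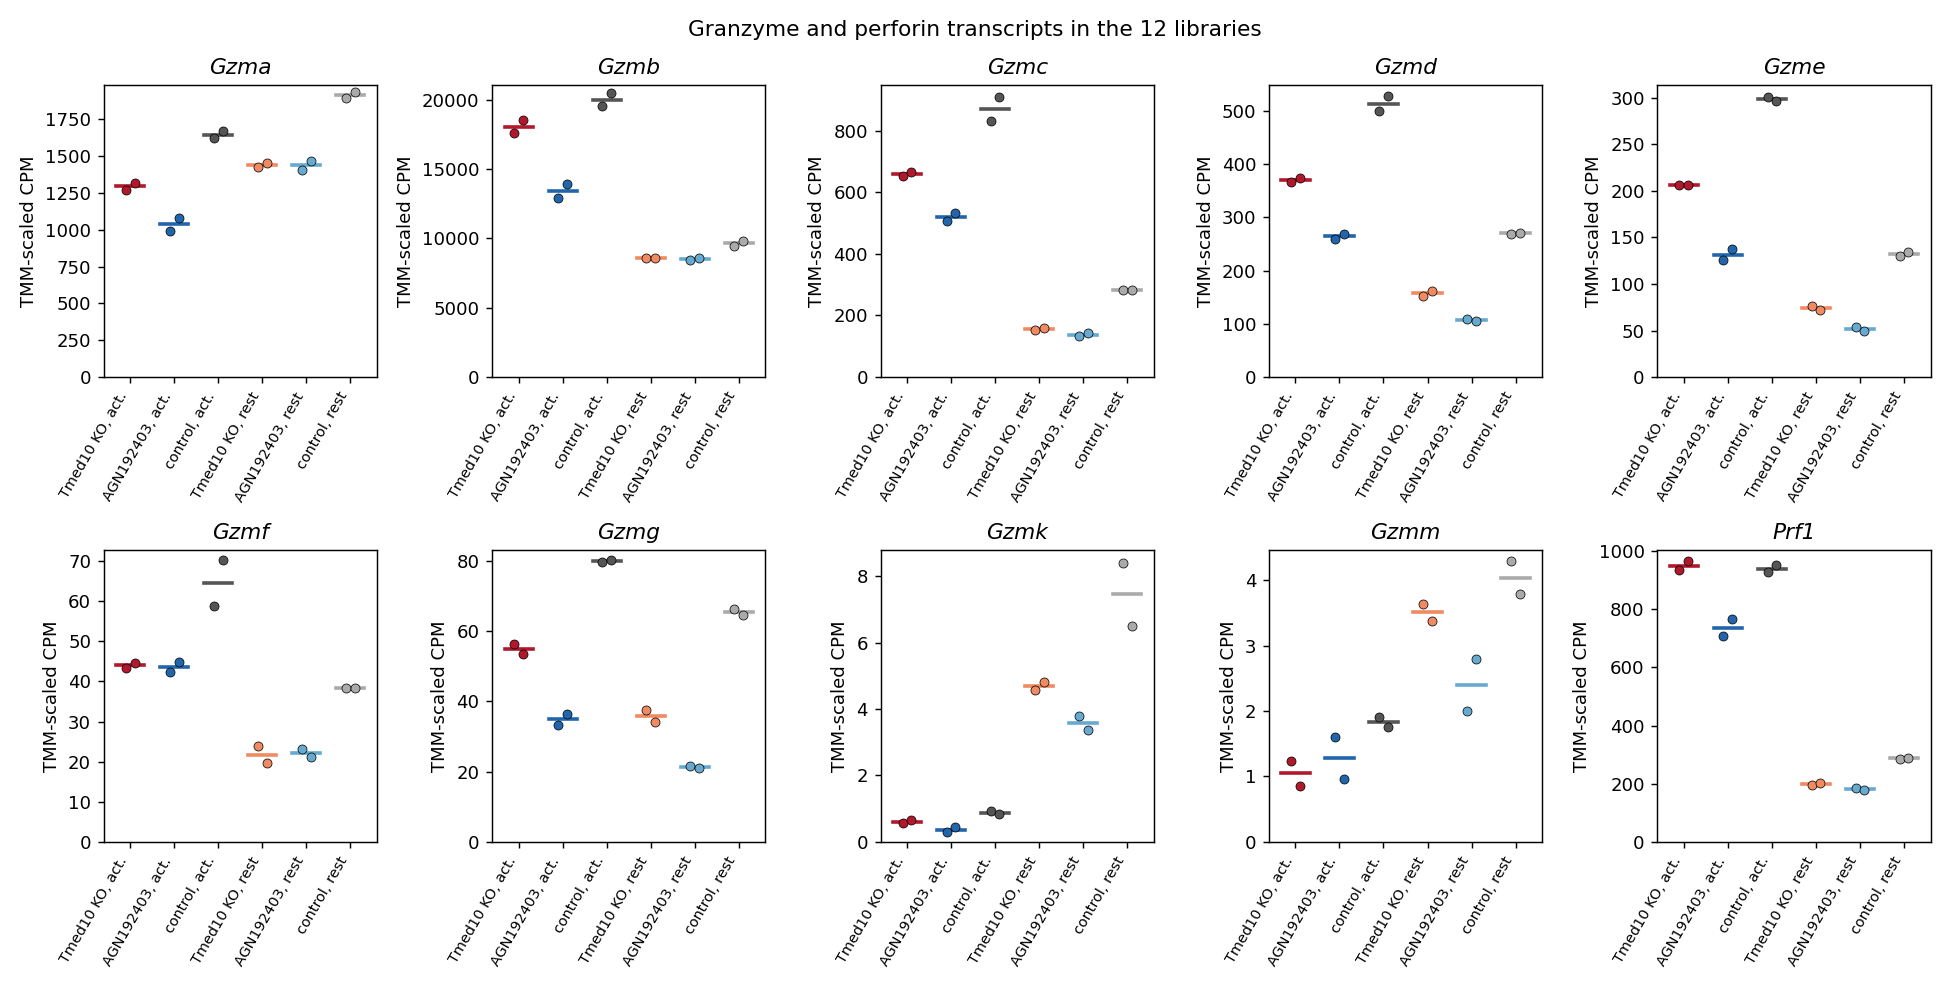
TMM-scaled CPM of each member in the 12 libraries, with 1 point per library and a bar at the mean of 2. Most members lie lower in Tmed10 KO and AGN192403-treated cells than in control cells, and Gzma, Gzmk and Gzmm are higher at rest than after activation.

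The first comparison asked what renewed activation did to these genes in control cells. Of the 10 members 7 rose and 3 fell. Over all 13167 genes tested, 36.4% were called higher and 37.4% lower at an adjusted p of 0.05, so calls were common. Prf1, which encodes the pore-forming protein, had 927 and 952 CPM in activated control cells, against 286 and 289 CPM in resting control cells. It rose 3.27-fold (log2 1.71 ± 0.043 SE, edgeR adjusted p = 1.98e-21). Gzmb had 19550.5 and 20457 CPM after activation, against 9438 and 9819 CPM at rest, which was 2.08-fold higher (log2 1.05 ± 0.035). In bulk RNA, more cells of a kind and more RNA per cell cannot be told apart.

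Within the cluster the response was graded. Gzmc rose the most, with 831 and 909 CPM in activated control cells, against 284 and 282 CPM in resting control cells (log2 1.62 ± 0.046). Gzme had 301 and 297 CPM after activation, against 130.1 and 134 CPM at rest (log2 1.18 ± 0.047), and Gzmd 500.0 and 528 CPM, against 269.9 and 271 CPM (log2 0.93 ± 0.042). Gzmf followed with 58.9 and 70.3 CPM, against 38.3 and 38.3 CPM (log2 0.75 ± 0.079). Gzmg was the least changed of the 5, with 79.9 and 80.3 CPM, against 66.4 and 64.7 CPM (log2 0.29 ± 0.056). As a sum, Gzmc to Gzmg had 1771 and 1885 CPM in activated control cells, against 789 and 790.1 CPM in resting control cells, and rose 2.32-fold (log2 1.21 ± 0.038, adjusted p = 1.78e-19). Gzmc made up 47.6% ± 0.94 of the summed counts after activation and 35.8% ± 0.26 at rest, and Gzmg 4.39% ± 0.18 after activation and 8.31% ± 0.17 at rest (SD, n = 2).

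The 2 tryptase genes of chromosome 13 went the other way. Gzma had 1622 and 1667 CPM in activated control cells, against 1889.8 and 1934 CPM in resting control cells (log2 −0.22 ± 0.040, adjusted p = 2.51e-05). Gzmk was nearly silent after activation, at 0.916 and 0.839 CPM (11 and 10 counts), against 8.39 and 6.51 CPM (84 and 86 counts) at rest, a log2 fold change of −3.05 ± 0.26 (adjusted p = 7.99e-11). Gzmm fell as well, to 1.92 and 1.76 CPM after activation (23 and 21 counts), against 4.30 and 3.78 CPM (43 and 50 counts) at rest (log2 −1.12 ± 0.26, adjusted p = 0.000503). Without the 3 libraries high in Kcnq1ot1, every member kept its direction, in control cells and in both perturbed conditions. In control cells the log2 fold change was then 1.06 for Gzmb, 1.725 for Prf1, −0.21 for Gzma, −2.94 for Gzmk and −1.09 for Gzmm.

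These changes altered the make-up of the family relative to granzyme B. For every 100 Gzmb reads, activated control cells had 8.22 ± 0.11 reads of Gzma and resting control cells 19.9 ± 0.23. Prf1 ran in the opposite direction, with 4.70 ± 0.062 reads in activated and 2.98 ± 0.060 reads in resting control cells (SD, n = 2). The summed Gzmc to Gzmg stayed closer, at 9.14 ± 0.11 and 8.20 ± 0.22 reads in the same 2 groups.

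**Figure D3:**
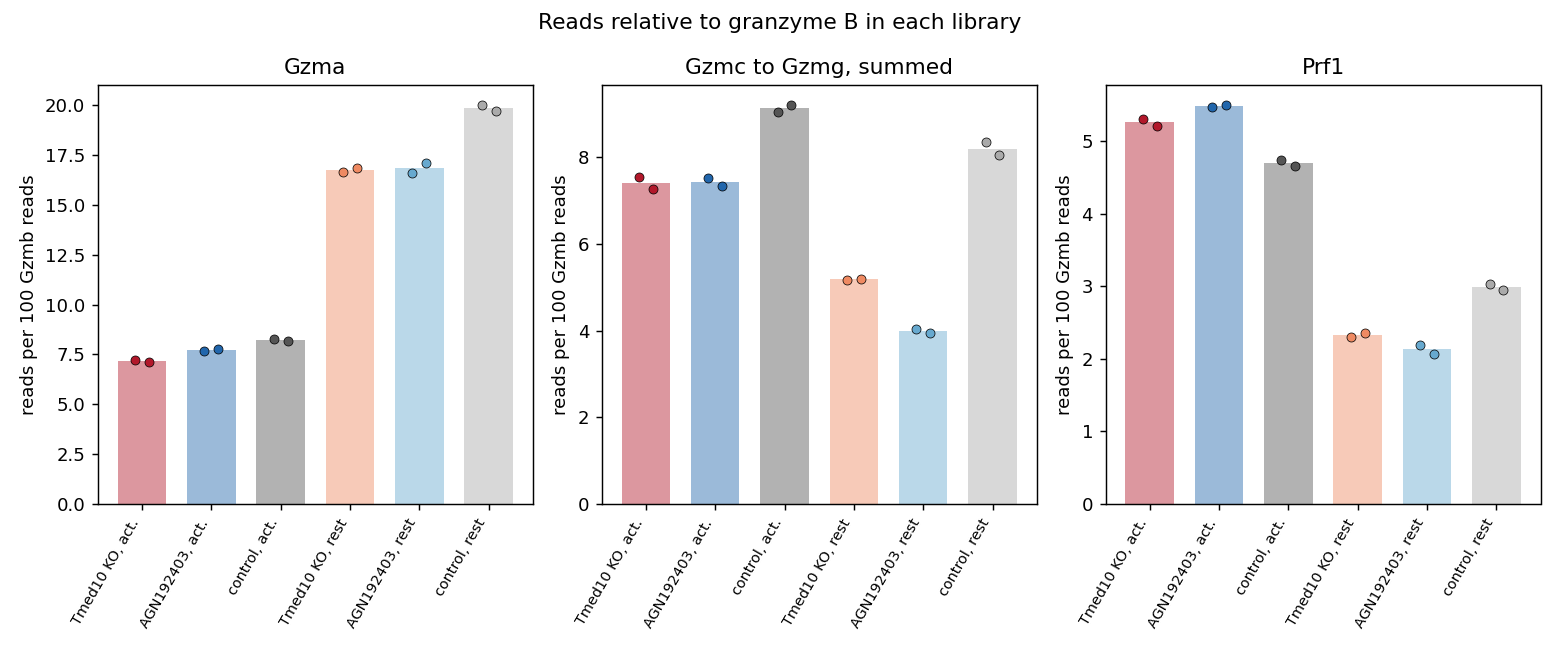
Reads of Gzma, of Gzmc to Gzmg summed and of Prf1 per 100 reads of Gzmb, with 1 point per library and a bar at the mean of 2. Gzma lies between 7.12 and 8.30 in activated and 16.61 and 20.02 in resting libraries, and the sum is lowest in resting AGN192403-treated cells (3.93 and 4.03).

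The second comparison asked whether loss of Tmed10 changed these genes in activated cells. Of the 10 members 7 were lower in Tmed10 KO cells than in control cells, and Gzmk, Gzmm and Prf1 did not pass the test. Among all genes, 8.78% were called lower and 10.8% higher. No member was called higher by edgeR, at an unadjusted p of 0.05 (0 of 10) or by DESeq2 (0 of 10). The median log2 fold change was −0.50 over the members and 0.02 over all genes. Gzma had 1270.3 and 1319 CPM in activated KO cells, against 1622 and 1667 CPM in activated control cells (log2 −0.35 ± 0.040, adjusted p = 5.83e-07). Gzmb had 17574 and 18520.2 CPM in KO cells, against 19550.5 and 20457 CPM in control cells, a fall of 0.15 ± 0.034 on the log2 scale (adjusted p = 0.00267). Without replicate 1 of the activated KO cells the fall of Gzmb no longer passed the test (adjusted p = 0.0644).

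The cluster genes fell further than Gzmb. Gzmc had 652 and 666 CPM in activated KO cells, against 831 and 909 CPM in activated control cells (log2 −0.40 ± 0.044). Gzmd had 367 and 373 CPM, against 500.0 and 528 CPM (log2 −0.47 ± 0.041), and Gzme 207 and 207 CPM, against 301 and 297 CPM (log2 −0.53 ± 0.045). The less abundant Gzmf, at 43.4 and 44.7 CPM against 58.9 and 70.3 CPM, and Gzmg, at 56.5 and 53.6 CPM against 79.9 and 80.3 CPM, fell by 0.56 ± 0.076 and 0.53 ± 0.057 on the log2 scale. Summed, the cluster was 1.37-fold lower in KO cells (log2 −0.45 ± 0.038, adjusted p = 2.92e-09). Prf1 differed from them, with 934 and 965 CPM in KO cells, against 927 and 952 CPM in control cells (log2 0.01 ± 0.041, adjusted p = 0.855), and the groups overlapped. Gzmk had 9 and 6 counts in activated KO cells, against 11 and 10 in activated control cells, and Gzmm 20 and 8, against 23 and 21. At such counts a difference was not detectable (adjusted p = 0.451 for Gzmk and 0.141 for Gzmm).

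In resting cells 9 of 10 members were lower in the KO, all but Gzmm. Over all genes 4.63% were called lower and 2.81% higher, and the median log2 fold change was −0.72 over the members and 0.00275 over all genes. No member was higher at an unadjusted p of 0.05 (0 of 10) or by DESeq2 (0 of 10). DESeq2 gave no adjusted p there for Gzmf, Gzmg, Gzmk and Gzmm. With library totals in place of TMM scaling, 521 genes were called higher and 504 lower, where TMM scaling gave 370 and 609. The resting cluster was the most affected part of the family. Gzmc had 152 and 159.7 CPM in resting KO cells, against 284 and 282 CPM in resting control cells (log2 −0.86 ± 0.049), and Gzmd 153 and 162 CPM, against 269.9 and 271 CPM (log2 −0.79 ± 0.045). Gzme had 76.1 and 72.6 CPM, against 130.1 and 134 CPM (log2 −0.82 ± 0.054). Gzmf and Gzmg fell by 0.78 ± 0.095 and 0.85 ± 0.064 on the log2 scale, to 23.9 and 19.6 CPM against 38.3 and 38.3 CPM, and to 37.7 and 34.3 CPM against 66.4 and 64.7 CPM. Their sum was 1.77-fold lower in KO cells (log2 −0.83 ± 0.039, adjusted p = 3.66e-13).

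The other resting members fell less. Prf1 had 196 and 203 CPM in resting KO cells, against 286 and 289 CPM in resting control cells (log2 −0.53 ± 0.045, adjusted p = 2.16e-08). Gzma had 1424 and 1452 CPM, against 1889.8 and 1934 CPM (log2 −0.41 ± 0.040). Gzmb had 8561 and 8619 CPM, against 9438 and 9819 CPM (log2 −0.16 ± 0.035, adjusted p = 0.00303), and this call was lost without replicate 1 (adjusted p = 0.138) or 2 (0.0967) of the resting KO cells or replicate 2 of the resting control cells (0.0583). Gzmk had 74 and 44 counts in KO cells, or 4.57 and 4.80 CPM, against 84 and 86 counts, or 8.39 and 6.51 CPM, in control cells (log2 −0.66 ± 0.18, adjusted p = 0.0226). The call of Gzmk was lost without replicate 1 (0.249) or 2 (0.0959) of the KO cells or replicate 1 of the control cells (0.30). Gzmm had 59 and 31 counts, against 43 and 50 (log2 −0.18 ± 0.23, adjusted p = 0.734). Malat1 and the other 2 nuclear RNAs checked summed to 585 and 686 CPM in activated KO cells, against 1191 and 1864 CPM in activated control cells, and to 1035 and 1053 CPM, against 1877 and 3043 CPM, at rest. They thus moved with the KO, and their part in the result was not tested. Marker sums differed as well between KO and control cells. Natural killer sums were 43.6 to 45.1 against 35.3 to 35.7 CPM after activation and 177 to 183 against 146 to 151 CPM at rest. Gamma delta sums were 74.4 to 75.4 against 62.0 to 70.1 CPM after activation and 330 to 333 against 260 to 270 CPM at rest. Mast cell sums were 56.3 to 60.9 against 44.1 to 46.7 CPM after activation and 75.1 to 76.6 against 77.8 to 81.0 CPM at rest. The part of these markers was not tested. Without the 3 libraries high in Kcnq1ot1, the log2 fold change of the summed Gzmc to Gzmg was −0.50 in activated and −0.83 in resting KO cells. Gzmb then had −0.18 and −0.19, and Gzmk −0.48 at rest.

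The third comparison asked what AGN192403 did to the same genes. In activated cells 8 of 10 members were lower with the compound than with vehicle, all but Gzmk and Gzmm, where 18.3% of all genes were called lower and 16.4% higher. No member was higher at an unadjusted p of 0.05 (0 of 10) or by DESeq2 (0 of 10). The median log2 fold change was −0.70 over the members and −0.01 over all genes. With library totals in place of TMM scaling, 2684 genes were called higher and 1929 lower, where TMM scaling gave 2158 and 2412. Gzmb had 12900.2 and 13914 CPM in activated AGN192403-treated cells, against 19550.5 and 20457 CPM in activated control cells, 1.49-fold lower (log2 −0.58 ± 0.035, adjusted p = 1.11e-12). Gzma had 991 and 1079.8 CPM, against 1622 and 1667 CPM (log2 −0.67 ± 0.040). Prf1 had 706 and 765 CPM, against 927 and 952 CPM (log2 −0.35 ± 0.041, adjusted p = 1.7e-07). These 3 abundant effector genes were thus all lower after treatment.

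The sum of the cluster and 4 of its 5 genes fell further than Gzma and Gzmb, and Gzmf did not. Gzmc had 508 and 532 CPM in activated AGN192403-treated cells, against 831 and 909 CPM in activated control cells (log2 −0.74 ± 0.044). Gzme had 125 and 138 CPM, against 301 and 297 CPM (log2 −1.18 ± 0.047), and Gzmg 33.3 and 36.5 CPM, against 79.9 and 80.3 CPM (log2 −1.19 ± 0.062). Both were thus more than 2-fold lower. Gzmd had 260.4 and 269 CPM, against 500.0 and 528 CPM (log2 −0.96 ± 0.042). Gzmf was the least changed of the 5 and less changed than Gzma and Gzmb, at 42.4 and 44.8 CPM against 58.9 and 70.3 CPM (log2 −0.56 ± 0.076). The sum was 1.84-fold lower (log2 −0.88 ± 0.038, adjusted p = 3.81e-15). Gzmk had 3 and 6 counts with AGN192403, against 11 and 10 with vehicle, and did not pass the test (adjusted p = 0.0654). Gzmm, with 17 and 13 counts against 23 and 21, did not pass it either (adjusted p = 0.215).

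In resting cells all 10 members were lower with AGN192403, where 13.7% of all genes were called lower and 11.6% higher. No member was higher at an unadjusted p of 0.05 (0 of 10) or by DESeq2 (0 of 10). The median log2 fold change was −0.92 over the members and −0.00633 over all genes. With library totals, 1991 genes were called higher and 1426 lower, where TMM scaling gave 1533 and 1808. Gzmg was the most changed, with 21.7 and 20.95 CPM in resting AGN192403-treated cells, against 66.4 and 64.7 CPM in resting control cells, 3.08-fold lower (log2 −1.62 ± 0.072). Gzme had 54.2 and 49.1 CPM, against 130.1 and 134 CPM (log2 −1.36 ± 0.058), and Gzmd 109 and 105 CPM, against 269.9 and 271 CPM (log2 −1.34 ± 0.047). Gzmc had 132 and 142 CPM, against 284 and 282 CPM (log2 −1.04 ± 0.050). Gzmf was again the least changed, at 23.04 and 21.2 CPM against 38.3 and 38.3 CPM (log2 −0.80 ± 0.097). Their sum was 2.33-fold lower (log2 −1.22 ± 0.040, adjusted p = 6.52e-17).

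Prf1 had 186 and 178 CPM in resting AGN192403-treated cells, against 286 and 289 CPM in resting control cells (log2 −0.66 ± 0.046). Gzma had 1405 and 1468 CPM, against 1889.8 and 1934 CPM (log2 −0.41 ± 0.040). Gzmb had 8459.8 and 8583 CPM, against 9438 and 9819 CPM, and fell by 0.18 ± 0.035 on the log2 scale (adjusted p = 0.000399). Gzmb thus changed little at rest in relative terms. Gzmk had 36 and 47 counts, against 84 and 86 (log2 −1.05 ± 0.19, adjusted p = 0.000177). Gzmm had 19 and 39 counts, against 43 and 50 (log2 −0.70 ± 0.25, adjusted p = 0.0399), and this call was lost when any 1 of the 4 libraries was left out (adjusted p from 0.0592 to 0.219) and by DESeq2 (0.266). The call of Gzmm was also lost under library totals (0.0524). Without the 3 libraries high in Kcnq1ot1, the log2 fold change of the summed Gzmc to Gzmg was −0.89 in activated and −1.22 in resting AGN192403-treated cells. Gzmb then had −0.56 and −0.21, and Gzmm −0.61 at rest. The nuclear RNAs summed to 1007 and 2154 CPM in activated AGN192403-treated cells, against 1191 and 1864 CPM in activated control cells, and to 1519 and 1547 CPM, against 1877 and 3043 CPM, at rest. At rest, the marker sum of mast cells, nearly all of it Kit, was 48.5 to 52.6 CPM with AGN192403, against 77.8 to 81.0 CPM in control cells. That of natural killer cells, nearly all of it Cd160, was 116 to 123 CPM, against 146 to 151 CPM. The sum of gamma delta T cells was higher, at 283 to 284 CPM, against 260 to 270 CPM. In activated cells the mast cell sum was 53.1 to 54.0 CPM with AGN192403, against 44.1 to 46.7 CPM in control cells. The natural killer and gamma delta sums overlapped there. The part of these markers and of the nuclear RNAs in the result was not tested.

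**Figure D4:**
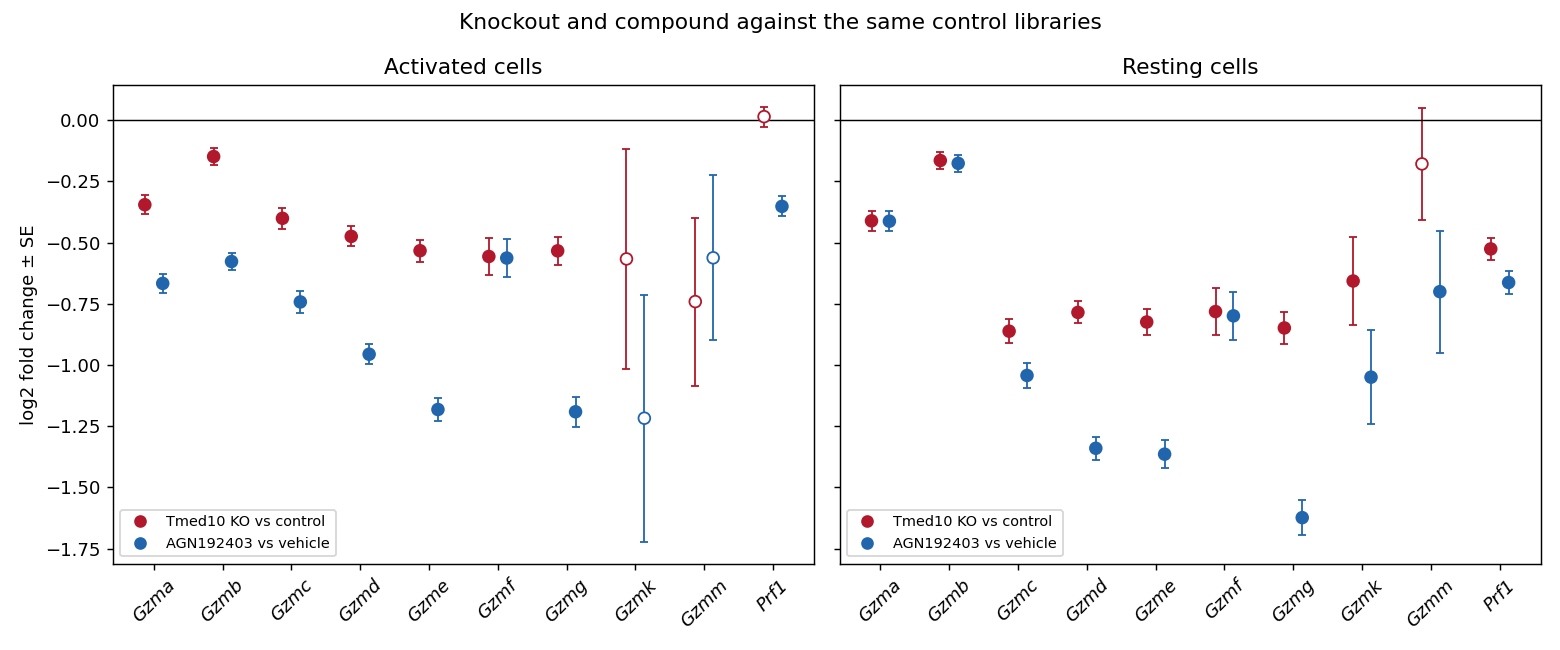
Log2 fold change ± SE of each member in Tmed10 KO cells and in AGN192403-treated cells against the same control libraries, in activated and resting cells. Filled points passed an adjusted p of 0.05. Prf1 in the activated KO lies at 0.01, and Gzmg at rest reaches −1.62 with AGN192403.

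The KO and the compound were then compared with each other without the shared controls. In activated cells 7 of 10 members were higher in Tmed10 KO than in AGN192403-treated cells, where 13.0% of all genes were called higher and 7.34% lower. Under library totals the split was 1204 genes higher and 1500 lower, where TMM scaling gave 1706 and 967. Gzmb, with 17574 and 18520.2 CPM in KO cells against 12900.2 and 13914 CPM with AGN192403, was 1.35-fold higher (log2 0.43 ± 0.035, adjusted p = 1.83e-09). Prf1 was 1.29-fold higher (log2 0.37 ± 0.041) and Gzma 1.25-fold higher (log2 0.32 ± 0.040). Gzmg and Gzme differed the most, by log2 0.66 ± 0.066 and 0.65 ± 0.048, and Gzmf did not pass the test (log2 0.01 ± 0.081, adjusted p = 0.971). No member was called lower, at an unadjusted p of 0.05 (0 of 10) or by DESeq2 (0 of 10, with no adjusted p for Gzmk and Gzmm).

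At rest 5 of 10 members were higher in Tmed10 KO than in AGN192403-treated cells, where 8.83% of all genes were called higher and 7.78% lower. Under median-ratio size factors the split was 1511 genes higher and 795 lower, where TMM scaling gave 1162 and 1024. These members were Gzmg (log2 0.77 ± 0.079), Gzmd (0.55 ± 0.049), Gzme (0.54 ± 0.062), Gzmc (0.18 ± 0.052) and Prf1 (0.14 ± 0.047). Their sum over Gzmc to Gzmg was 1.31-fold higher in KO cells (adjusted p = 8.18e-08). The calls of Prf1 (adjusted p = 0.0446) and Gzmc (0.017) were lost when replicate 2 of the resting KO cells was left out (0.11 and 0.0639). The call of Prf1 was also lost without replicate 2 of the resting AGN192403-treated cells (0.185), and that of Gzmc without replicate 1 (0.0817). Prf1 was not called under library totals (0.0521) or without the filter on low counts (0.207) either. Gzma (log2 0.00134 ± 0.040, adjusted p = 0.994) and Gzmb (log2 0.01 ± 0.035, adjusted p = 0.88) overlapped between the groups. No member was called lower, at an unadjusted p of 0.05 (0 of 10) or by DESeq2 (0 of 10, with no adjusted p for Gzmk and Gzmm).

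The last comparison asked whether activation itself acted differently in perturbed cells. The same 7 members rose and the same 3 fell on activation in all 3 conditions. In Tmed10 KO cells 37.2% of all genes were called higher and 36.5% lower after activation, and with AGN192403 33.9% were called higher and 36.1% lower. Prf1 rose 4.76-fold in KO cells (log2 2.25 ± 0.045) and 4.06-fold with AGN192403 (2.02 ± 0.045), against 3.27-fold in control cells. Gzmc rose 4.24-fold in KO cells and 3.79-fold with AGN192403, against 3.08-fold in control cells. Gzmb rose 2.10-fold in KO cells and 1.57-fold with AGN192403, against 2.08-fold in control cells. Gzmk fell by 2.96 ± 0.30 on the log2 scale in KO cells and by 3.22 ± 0.37 with AGN192403, against 3.05 ± 0.26 in control cells. The fall of Gzma in KO cells (log2 −0.15 ± 0.040, adjusted p = 0.0014) was not called without the filter on low counts (0.0905). That of Gzmm with AGN192403 (log2 −0.98 ± 0.32, adjusted p = 0.00812) was lost by DESeq2 (0.10) and without replicate 2 of the activated (0.158) or the resting AGN192403-treated cells (0.186).

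The differences between these responses were tested directly. For the KO, 5 members had a larger log2 change on activation than in control cells, where 3.07% of all genes were called in that direction and 1.89% in the other. With median-ratio size factors the split was 331 genes and 302, where TMM scaling gave 404 and 249. Prf1 had the largest difference (log2 0.54 ± 0.061, adjusted p = 3.65e-06), followed by Gzmc (0.46 ± 0.066, adjusted p = 8.66e-05), Gzmg (0.31 ± 0.086, 0.0315), Gzmd (0.31 ± 0.061, 0.00225) and Gzme (0.29 ± 0.071, 0.0138). For Prf1, the 2 groups were apart at rest and overlapped after activation. Leaving out 1 library left between 2 and 4 members, with 2 (Prf1 and Gzmc) when replicate 1 of the resting KO cells was left out, and DESeq2 called 3. Prf1 and Gzmc were called in each of these fits, and Gzmg in none of them. Without the 3 libraries high in Kcnq1ot1, the difference of Gzmg was log2 0.295. No member had a smaller change by edgeR, at an unadjusted p of 0.05 (0 of 10) or by DESeq2 (0 of 10, with no adjusted p for Gzmk and Gzmm).

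With AGN192403, the signed log2 change on activation was higher than in control cells for 4 members and lower for 2. Over all genes, 8.62% were called in the first direction and 11.1% in the second. Gzmg (log2 0.43 ± 0.099), Gzmd (0.38 ± 0.063), Prf1 (0.31 ± 0.061) and Gzmc (0.30 ± 0.067) were the higher ones. For Gzmb (−0.40 ± 0.049, adjusted p = 1.72e-06) the rise was smaller. For Gzma (−0.25 ± 0.056, adjusted p = 0.00191) the fall was deeper. Gzma fell by log2 0.47 ± 0.040 with AGN192403 and by 0.22 ± 0.040 in control cells. Granzyme B transcript was thus 1.13-fold lower with AGN192403 at rest and 1.49-fold lower after activation. The summed Gzmc to Gzmg had a larger response both in KO cells (log2 0.37 ± 0.054, adjusted p = 0.000109) and with AGN192403 (0.34 ± 0.055, adjusted p = 6.48e-05), with resting levels of 443 and 448 CPM in KO cells and 341 and 338 CPM with AGN192403, against 789 and 790.1 CPM in control cells. Without the 3 libraries high in Kcnq1ot1, the difference of Gzme with AGN192403 was log2 0.27, against 0.18 with all libraries. The differences tested for the KO and for AGN192403 share the same control libraries.

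**Figure D5:**
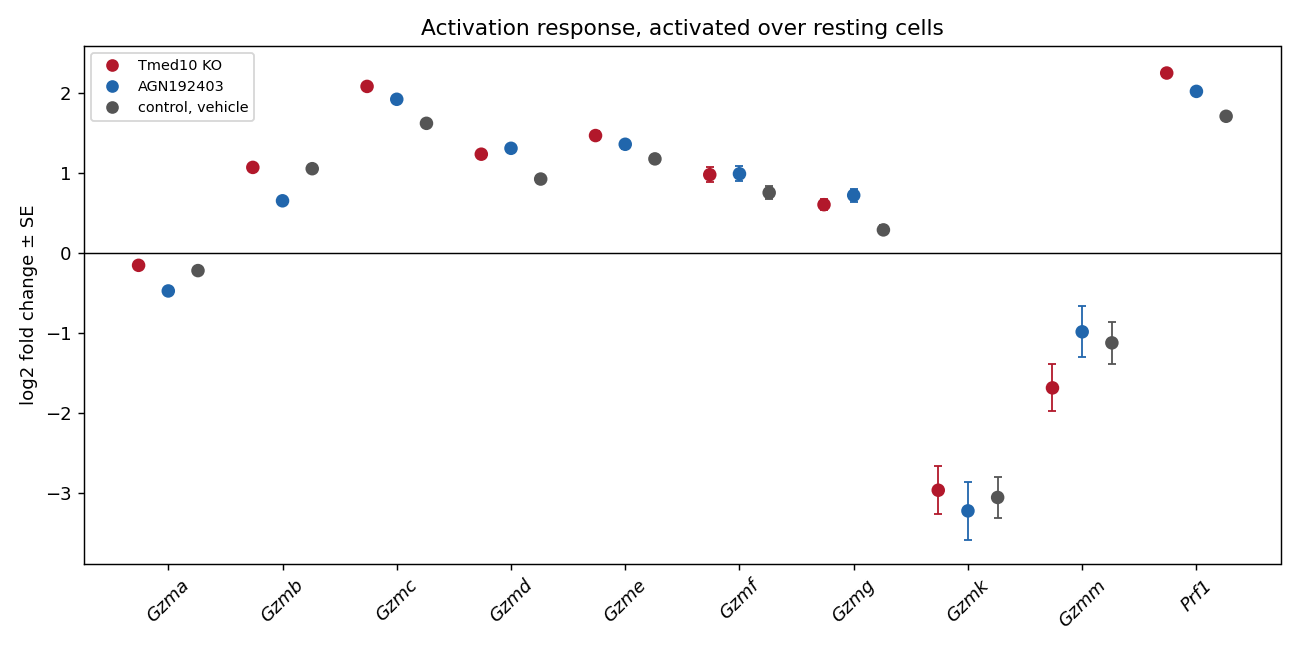
Log2 fold change ± SE on activation in Tmed10 KO, AGN192403-treated and control cells. All points passed an adjusted p of 0.05. Prf1 and Gzmc rise furthest in KO cells, Gzmb rises least with AGN192403, and Gzma, Gzmk and Gzmm fall in all 3 conditions.

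Genes that act with the granzymes were read from 2 lists. The granule pathway list held 42 genes for storage, transport and control of granules, of which 39 were tested. On activation of control cells 15 rose and 16 fell, where 36.4% of all genes rose and 37.4% fell. Among the genes of the list with at least 10 CPM in either group, the 3 largest rises were in serpins. Serpinb9, the cytosolic inhibitor of granzyme B that protects T cells from their own protease, averaged 2432 CPM in activated and 209 CPM in resting control cells (log2 3.54 ± 0.040). Its relatives Serpinb9b and Serpinb6b rose by log2 6.08 ± 0.091 and 3.27 ± 0.045. Stx11, a syntaxin needed for granule fusion, rose by log2 1.92 ± 0.073. Sytl2, a Rab27a effector, fell by 2.49 ± 0.057 on the log2 scale, and Lyst, which controls lysosome size, fell by 2.00 ± 0.093. In activated KO cells 11 of 39 were higher and 5 lower than in control cells, beside 10.8% and 8.78% of all genes, with a median log2 fold change of 0.06 over the list and 0.02 over all genes. DESeq2 called 4 genes of the list higher and 4 lower there. In resting KO cells 2 were higher and 4 lower, beside 2.81% and 4.63% of all genes. With AGN192403, 12 were higher and 11 lower in activated cells, beside 16.4% and 18.3% of all genes, and 8 higher and 6 lower at rest, beside 11.6% and 13.7%. The median log2 fold change with AGN192403 was 0.06 over the list in activated and 0.05 in resting cells, where the members had −0.70 and −0.92.

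Single genes of the list changed. Serpinb9 averaged 1688 CPM in activated AGN192403-treated cells and 2432 CPM in activated control cells (log2 −0.53 ± 0.035, adjusted p = 9.99e-12). Rab27a, the small GTPase that docks granules, fell by 0.41 ± 0.045 on the log2 scale in the same comparison and by 0.24 ± 0.047 at rest. Tnfsf10, which encodes the death ligand TRAIL, was lower in activated AGN192403-treated cells (17.7 against 46.2 CPM, log2 −1.38 ± 0.088) and in activated KO cells (36.1 against 46.2 CPM, log2 −0.35 ± 0.076), but higher in resting KO cells (39.5 against 31.2 CPM, log2 0.33 ± 0.081). Igf2r, a receptor that sorts granzymes to granules, was lower in activated KO (log2 −0.43 ± 0.045) and activated AGN192403-treated cells (−0.31 ± 0.045) and in resting KO cells (−0.18 ± 0.044). Ctsc, the protease that activates granzymes by trimming them, was higher in activated KO cells (log2 0.32 ± 0.055). Lyst was lower in activated (log2 −0.60 ± 0.12) and resting KO cells (−0.28 ± 0.078) and in resting AGN192403-treated cells (−0.46 ± 0.080). In resting KO cells DESeq2 called only 1 gene of this list lower and 1 higher.

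The second list held 29 transcriptional regulators known to act on granzyme or perforin genes or on the state of T cells in which these are expressed, and all 29 were tested. It mixes activators such as Tbx21, Eomes and Runx3 with factors of memory-like cells such as Tcf7, Foxo1 and Id3. On activation of control cells 12 rose and 16 fell (36.4% and 37.4% of all genes), led by Zeb2 (log2 4.90 ± 0.11), Stat5a (3.16 ± 0.052) and Irf4 (2.01 ± 0.038) among the rises and by Id3 (−4.29 ± 0.15), Tcf7 (−2.81 ± 0.059) and Runx1 (−2.16 ± 0.18) among the falls. In resting AGN192403-treated cells 22 of 29 were lower than in control cells, beside 13.7% of all genes, with a median log2 fold change of −0.31 over the list and −0.00633 over all genes. None was higher by edgeR, at an unadjusted p of 0.05 (0 of 29) or by DESeq2 (0 of 29). Among the regulators with at least 10 CPM in either group, the AP-1 genes Fos and Junb were the most changed, followed by Prdm1. Fos averaged 7.46 CPM with AGN192403 and 17.7 CPM in control cells (log2 −1.29 ± 0.13), Junb 125 and 223 CPM (−0.84 ± 0.067), and Jun 81.2 and 117 CPM (−0.53 ± 0.050). Prdm1, which encodes the effector regulator Blimp-1, fell by 0.71 ± 0.080, Notch1 by 0.52 ± 0.053 and Tcf7 by 0.44 ± 0.047 on the log2 scale.

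In resting KO cells 9 of the 29 regulators were lower, beside 4.63% of all genes. None was called higher by edgeR or by DESeq2 (0 of 29 each), and 3 were higher at an unadjusted p of 0.05. With a block for replicate number edgeR called 3 higher. Fos (log2 −1.16 ± 0.13), Junb (−0.53 ± 0.065), Id2 (−0.30 ± 0.038), Notch1 (−0.30 ± 0.052), Rbpj (−0.25 ± 0.050) and Irf4 (−0.25 ± 0.040) were the most changed. In activated KO cells 8 were lower and 2 higher, beside 8.78% and 10.8% of all genes. Runx3 (log2 −0.30 ± 0.057), Batf (−0.33 ± 0.067), Notch1 (−0.37 ± 0.052) and Notch2 (−0.32 ± 0.051) were lower, and Tcf7 (0.71 ± 0.072) and Eomes (0.33 ± 0.054) were higher. In activated AGN192403-treated cells 12 were lower and 5 higher, beside 18.3% and 16.4% of all genes. Batf (log2 −0.65 ± 0.070), Stat3 (−0.50 ± 0.036), Foxo1 (−0.43 ± 0.049) and Nfil3 (−0.41 ± 0.049) were lower, and Tcf7 (0.49 ± 0.074) and Eomes (0.46 ± 0.054) were higher. Whether any of these factors acted on the granzyme genes was not tested.

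Correlations among the members over the 12 libraries are given here as a description of points that share groups and depth. Prf1 followed Gzmc and Gzmb, with Pearson r of 0.982 and 0.966 in log2 CPM, and Gzmd followed Gzme at 0.996. Gzmk followed Gzmm at 0.895, and it ran against Prf1 at −0.868. Gzma followed Gzmk at 0.719, and had an r of −0.175 with Gzmb. Gzmg lay between, with an r of 0.600 with Prf1, 0.483 with Gzma and −0.143 with Gzmk. Among 8906 genes with a mean of at least 10 CPM, the 3 most like Gzmb were Ddx39, Uchl5 and Eftud2 (r = 0.996, 0.994 and 0.993), and the 3 most like Prf1 were Sema7a, Adap1 and Acot7 (0.996, 0.996 and 0.995). Gzma was most like Esm1, Cd2 and B4galnt4 (0.963, 0.940 and 0.938). The summed Gzmc to Gzmg was most like Slc16a3, Cmip and Baz1a (0.989, 0.985 and 0.984), Gzmk most like Pstpip1 (0.995) and Gzmm most like Arhgap33 (0.975).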

How the data were processed

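Whole-number read counts for each gene were deposited in 1 table. The authors made these counts with STAR 2.6.0c and HTSeq on GRCm38 (mm10) per the labels, whereas the study's methods give a different STAR version and stranded libraries. Each column was mapped to its group by the labels. Counts of 13167 genes kept by filterByExpr were scaled by TMM and fitted with edgeR 4.0.16 in R 4.3.3, with 1 mean per group over the 12 libraries (6 residual degrees of freedom). Calls used p-values adjusted by Benjamini-Hochberg over the 13167 genes tested, within each contrast, at 0.05. The ± beside a log2 fold change is its standard error, and beside a level the SD of 2 libraries. Over 11 contrasts the text names the 10 members, Tmed10, Gzmn, up to 6 called genes of each list with at least 10 CPM, and the genes most like a member. Members and lists were chosen with earlier results of these data known. No pairing by replicate number was used. Exon and coding lengths, and windows of 65 bases, came from GENCODE M21 on GRCm38, and promoters from RefSeq. Coding length came from the annotation and not from protein length. Alternatives were no filter, a filter of 5 CPM in 2 libraries, median-ratio size factors, library totals, a block for replicate number, only the compared libraries, each library left out, and DESeq2 1.42.0. Leaving out the 3 libraries high in Kcnq1ot1 was chosen after the data were seen. Depth limits Gzmk and Gzmm, with 3 to 86 counts per library.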

Additional observations from a re-analysis of the deposited data

Results flagged for a closer look

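The response to activation differed from that of control cells, by a test of the difference itself, for 11 combinations of member and perturbation. In Tmed10 KO cells the log2 change on activation was larger by 0.54 for Prf1, 0.46 for Gzmc, 0.31 for Gzmg, 0.31 for Gzmd and 0.29 for Gzme, and by 0.37 for Gzmc to Gzmg summed. With AGN192403 it was larger by 0.43 for Gzmg, 0.38 for Gzmd, 0.31 for Prf1 and 0.30 for Gzmc, and by 0.34 for the sum, while the differences of Gzmb and Gzma were −0.40 and −0.25. In KO cells the call of Gzmg was lost in all 8 fits with 1 library left out (adjusted p from 0.0623 to 0.272), that of Gzme in 6 of 8 (0.0709 to 0.171) and that of Gzmd without replicate 1 of the resting KO cells (0.104).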

How the results depend on the processing

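Of 1374 recomputed values of single members, 1327 kept their side of the threshold, 43 were no longer called and 4 were newly called. No called value changed sign (0), and 37 values that were not called did, over 10 combinations of member and contrast that included Prf1 in activated KO cells. The sum of Gzmc to Gzmg was called in all 11 contrasts under every alternative run. DESeq2 called fewer genes than edgeR. It called 1343 against 2583 genes in activated and 363 against 979 in resting Tmed10 KO cells, 2890 against 4570 in activated and 1829 against 3341 in resting AGN192403-treated cells, and 1441 against 2673 and 1208 against 2186 between KO and AGN192403 after activation and at rest. It called 306 against 653 genes for the response to activation of KO cells and 1391 against 2592 for that of AGN192403-treated cells. For the granule pathway list it called 8 against 16 genes in activated KO, 2 against 6 in resting KO and 7 against 14 in resting AGN192403-treated cells, and for the response of KO cells 3 members against 5. DESeq2 gave no adjusted p in resting KO cells for Gzmf, Gzmg, Gzmk and Gzmm, and called the other 6 members. It also gave none for Gzmk and Gzmm between KO and AGN192403 in either state, or for either difference in response. With 1 library left out, 1538 to 2064 genes were called in activated KO cells, 317 to 806 in resting KO cells, 1861 to 2577 in resting AGN192403-treated cells, 1583 to 2804 between KO and AGN192403 after activation, 1215 to 1626 at rest, and 318 to 473 for the response of KO cells. Of the granule pathway list, 8 to 10 genes were called in activated KO, 1 to 3 in resting KO and 6 to 12 in resting AGN192403-treated cells. Of the members, 2 to 4 were called for the response of KO cells and 3 to 5 between KO and AGN192403 at rest, the 3 being without replicate 2 of the resting KO cells. Gzme was newly called for the response with AGN192403 without replicate 1 of the activated (adjusted p = 0.0151) or resting AGN192403-treated cells (0.0335), and Gzmf without replicate 2 of the activated control cells (0.0269). With a block for replicate number the members called were 7, 9, 8 and 10 in activated KO, resting KO, activated AGN192403-treated and resting AGN192403-treated cells, as without it, and the counts in the other 7 contrasts did not move either. The block gave 3 regulators called higher in resting KO cells, against 0 without it, and 1398 against 979 genes there. The numbers were not taken to pair the samples, since deviations of same-numbered libraries correlated at −0.00507 to 0.239 over 15 pairs of groups, with 3 above 0.1. Those 3 lay among activated AGN192403-treated, activated control and resting control cells, the groups whose replicate 1 was high in Kcnq1ot1. Depth limits Gzmk and Gzmm most, and groups of 2 leave the spread to be estimated from all 6 groups.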
